A study of Zea mays with 48 samples.

Results

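The 199 maize genes described here carry consecutively numbered identifiers, from Zm00001d048533 to Zm00001d049068, a range of 536 numbers. Of 309 rows of the expression table in this range, 199 reached 1 FPKM in 3 or more of the 48 libraries, and they are the members. The whole table holds 33309 rows, of which 22794 met the same condition. An FPKM value counts sequenced fragments relative to transcript length and library size, so levels can be set side by side between genes. The range was chosen by the FPKM differences between the mutant bzip60-2 and the line W22 in these same libraries. Differences between the genotypes are therefore given as a description with no test, and tests are kept for temperature and stage. Those tests draw on the same libraries, so they are not independent of that choice.

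Leaf RNA was sequenced from the maize inbred line W22 and from the mutant bzip60-2, and the labels name no other allele or agent. Plants of both genotypes grew in chambers with a maximum daily temperature of 31, 33, 35 or 37 °C and a cooler night. The middle of the newest fully expanded leaf was taken 20 days after germination, at stage V4 (leaf 4 has a visible collar), and at 27 days, at V5. The 16 groups given by genotype, stage and temperature hold 3 libraries each. Chambers were not shared between temperatures, so an effect of the chamber and one of temperature cannot be told apart. The extraction protocol takes a sample per plant, whereas the design text gives several plants to a replicate, so whether a library is a single plant or a pool is not settled. The p-values measure only the spread between these libraries.

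The transcription factor bZIP60 acts in the unfolded protein response. When misfolded proteins build up in the endoplasmic reticulum of a plant cell, the sensor IRE1 splices the bZIP60 messenger RNA, and the protein then enters the nucleus and switches on genes for chaperones and other folding factors. The study set this response beside the response to heat stress in maize. Gene numbers of this kind are assigned along the chromosomes of a reference assembly, so neighbouring numbers often lie near each other. Chromosome positions were not analysed here, and the order below is the order of the numbers. None of the 199 identifiers was matched in the reference table used here (0 of 199), so the members are given by number, with no name or role. Leaf markers and the transcript of the mutated gene were not analysed here for the same reason.

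The FPKM of a library summed to between 869999 and 941520, and 24520 to 26641 rows were above 0. The depth in reads is unknown, so no interval for counting error can be given. Size factors, computed here as the median ratio to the geometric mean over genes, ran from 0.752 to 1.32. Group means were lowest at V4, where they lay between 0.758 and 0.871 for W22 and between 0.888 and 1.06 for bzip60-2. At V5 they lay between 0.957 and 1.22 for W22 and between 1.18 and 1.30 for bzip60-2. The libraries also fell into a pair of sets by transcript Zm00001d033132, which is no member. It was below 10 FPKM in 14 libraries, and above 10 in the other 34. The 14 were the V4 libraries of bzip60-2 at 31 °C and all V4 libraries of W22 but replicate 3 at 37 °C. The genotype pairs at V4 and 33, 35 and 37 °C cross these sets, while the other 5 pairs lie within a set. Only the group of W22 at V4 and 37 °C holds libraries of both sets. A term for the sets is therefore estimated from its replicate 3 against replicates 1 and 2. The part of the sets in the results was not tested beyond the values given with that term, which hang on a single library.

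The members spanned a wide range of expression. Their mean over 48 libraries ran from 0.167 to 3741 FPKM, with a median of 9.60 against 7.53 for all genes tested. The mean was at least 100 FPKM for 13 members and below 1 for 25, and 135 members reached 1 FPKM in all 48 libraries. Of the 110 rows left out for low values, 98 never reached 1 FPKM. Just inside the condition were Zm00001d048608 and Zm00001d048889, which reached 1 FPKM in 3 libraries (highest values 1.57 and 1.30). Just outside were Zm00001d048682, Zm00001d048760 and Zm00001d049015, which reached it in 2 (1.25, 1.13 and 1.25). No member shared its values with another row (0 of 199).

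Most members differed little between the genotypes, and a minority differed strongly, in both directions. The difference is the mean of log2(FPKM + 1) in bzip60-2 minus that in W22, averaged over the 8 pairs of groups that share stage and temperature. It was below 0.5 in size for 160 members (80.4%, against 88.6% of all genes tested). It was at least 1 for 10 members, where 1.46% of all genes tested were that much higher in the mutant, and at most -1 for 5, against 0.404%. Together these 15 were 7.54% of the members, against 1.86% of all genes tested. The range was chosen for these differences, so nothing is read from the higher share. In bulk leaf RNA, fewer cells of a type and less RNA per cell cannot be told apart.

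The sign of the difference was the same in all 8 pairs for 51 members higher in bzip60-2 and 11 lower. Over all genes tested, 25.9% were higher and 2.29% lower in this way. These counts move with the scale of the libraries. As deposited, the median gene of all those tested was 0.20 higher in bzip60-2, and 0.00 higher after division by size factors. After that division 20 members were higher and 28 lower in all 8 pairs (7.09% and 9.12% of all genes tested). The members' own median difference was 0.18 as deposited and -0.00 after division. Their median size of difference was 0.27 as deposited (0.23 over all genes tested) and 0.20 after division (0.14).

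**Figure D1:**
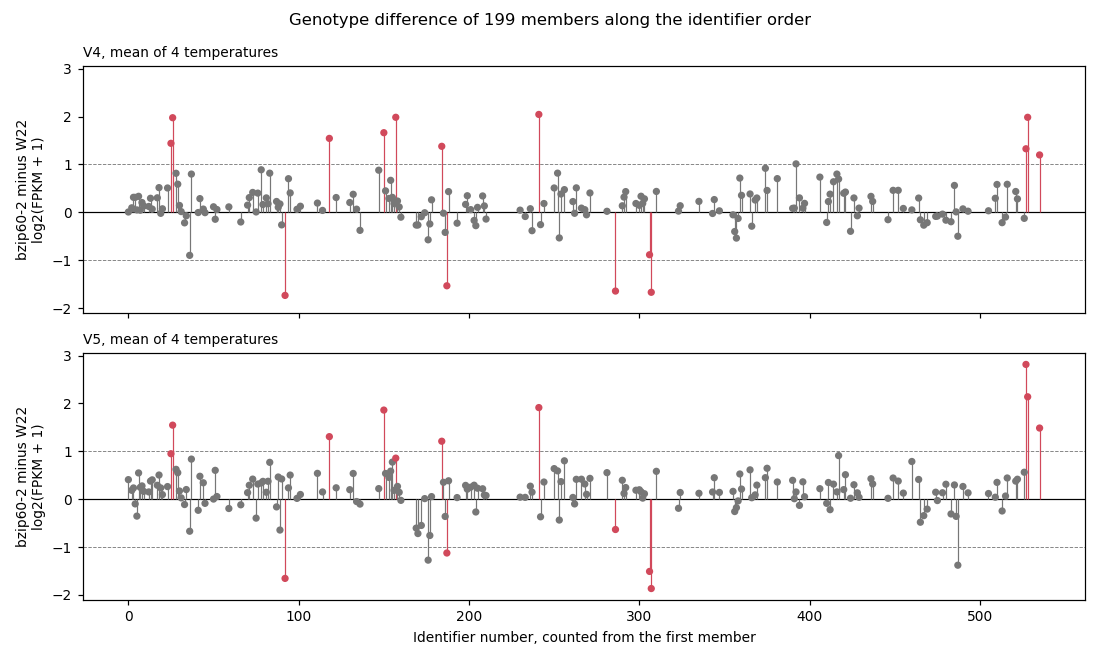
Difference between genotypes (bzip60-2 minus W22, in log2(FPKM + 1), mean of the 4 temperatures) for 199 members at V4 (upper panel) and V5 (lower panel), against identifier number counted from the first member. The 15 members whose mean over both stages is at least 1 in size are in red, and dashed lines mark a difference of 1: they are scattered among members near 0, with 3 of them at the upper end and none between Zm00001d048840 and Zm00001d049060.

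Along the numbers, the 15 members with a mean difference of at least 1 in size were spread over 5 of 6 stretches of 100 identifiers. The first stretch, with 54 members, held 2 higher and 1 lower, and the second, with 35 members, held 4 higher and 1 lower. The third, with 32 members, held 1 higher and 1 lower, and the next, also with 32, held 0 higher and 2 lower. The fifth, with 34 members, held 0, and its largest difference was -0.94 (Zm00001d049020). The sixth is short, with 12 members, and held 3 higher and 0 lower, all among its last identifiers.

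The median difference of the stretches ran from 0.09 in the fifth to 0.21 in the first and 0.38 in the sixth. The 199 tested genes with the next lower numbers held 1 gene with a mean difference of at least 1 and 0 of at most -1, and the 199 with the next higher numbers held 6 and 1. Their median differences were 0.22 and 0.19. The largest mean difference among the next higher numbers was 2.65, beyond that of any member. At the lower end the last genes outside, Zm00001d048531 and Zm00001d048532, differed by 0.28 and 0.47, and the first inside, Zm00001d048533 and Zm00001d048535, by 0.21 and 0.14. At the upper end the last inside, Zm00001d049061 and Zm00001d049068, differed by 2.06 and 1.34, and the next outside, Zm00001d049075 and Zm00001d049076, by 0.38 and 0.22.

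The number of members that differed between the genotypes varied with stage and temperature. At V4, 19 members differed by at least 1 in either direction at 31 °C (3.11% of all genes tested), 15 at 33 °C (3.15%), 25 at 35 °C (5.08%) and 18 at 37 °C (6.35%). At V5 and 31 °C it was 36 members (8.48%). At the higher temperatures of V5 it was 19 members at 33 °C (3.39%), 18 members at 35 °C (3.66%) and 15 members at 37 °C (3.99%). V5 at 31 °C thus held the highest number, for the members as for all genes tested. There 27 members were higher and 9 lower (6.74% and 1.74% of all genes tested). The median member was 0.45 higher in the mutant, against 0.34 for all genes tested. After division by size factors 17 members were higher and 12 lower in that pair, against 5.97% of all genes tested in either direction. The members' median was then 0.13 (0.02 for all genes). At V5 and 33 °C the split was 8 higher and 11 lower (1.505% and 1.88% of all genes tested), with a median of 0.02 (0.08 for all genes).

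At V5 and 31 °C the median difference as deposited was 0.43 in the first stretch, 0.46 in the second, 0.39 in both the third and the next, 0.37 in the fifth and 0.84 in the sixth. The median of all genes tested was itself 0.34 in that pair, and the members' median fell from 0.45 to 0.13 after division by size factors. At V5 and 33 °C the medians lay between -0.04 in the fifth stretch and 0.08 in the third. In the third stretch 7 members were at least 1 higher at V5 and 31 °C, where 6.74% of all genes tested were. In no other pair were more than 2 members of this stretch that much higher. Of all genes tested, 6.74%, 1.505%, 2.19% and 3.26% were at least 1 higher at 31, 33, 35 and 37 °C of V5. In the sixth stretch, 3 of 12 members were at least 1 higher in each of the 4 pairs at V5, but not always the same members. Zm00001d049060 and Zm00001d049061 were among them in every pair. The third was Zm00001d049049 at 31 °C (1.02), where Zm00001d049068 differed by 0.95, and Zm00001d049068 at the higher temperatures.

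**Figure D2:**
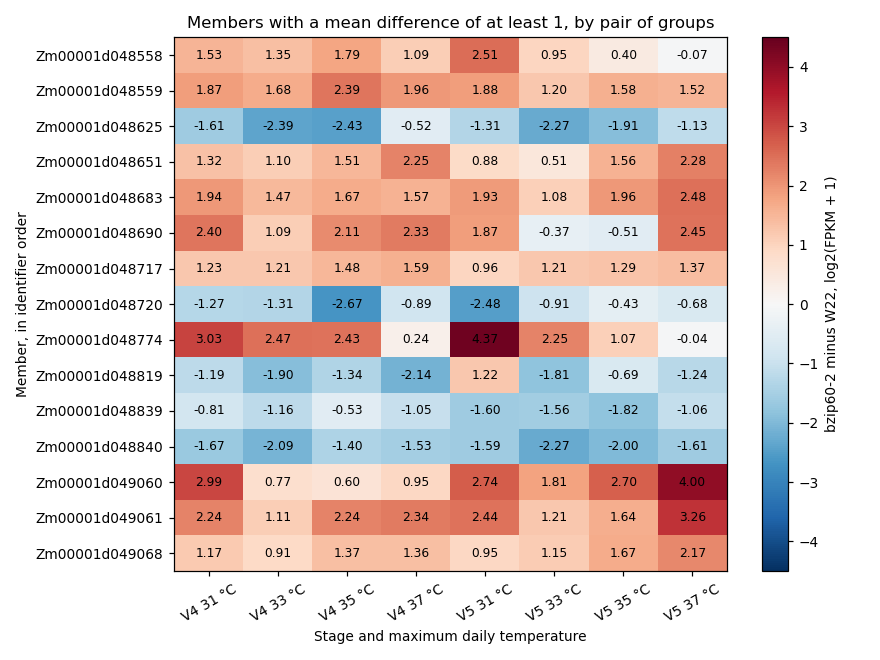
Difference between genotypes (bzip60-2 minus W22, in log2(FPKM + 1)) in each of the 8 pairs of groups, for the 15 members whose mean difference is at least 1 in size, in identifier order. Red cells are higher in bzip60-2 and blue cells lower, and each cell prints its value: Zm00001d048559, Zm00001d048683, Zm00001d048840 and Zm00001d049061 keep a size of at least 1 in every column, while Zm00001d048774 runs from 4.37 to -0.04 at V5.

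A difference of at least 1 in the same direction in all 8 pairs was found in 3 members higher in bzip60-2, Zm00001d048559, Zm00001d048683 and Zm00001d049061, against 0.320% of all genes tested. It was found in 1 member lower in bzip60-2, Zm00001d048840, against 0.0921%. All 24 libraries of bzip60-2 lay above all 24 of W22 for 2 members, Zm00001d048683 and Zm00001d048717 (0.483% of all genes tested). They lay below for 1 member, Zm00001d048840 (0.132%). Zm00001d048683 lost the first call after division by size factors. In the 5 pairs within a library set, Zm00001d048625 and Zm00001d049060 joined these 4, which makes 4 higher and 2 lower, against 0.483% of all genes tested.

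Zm00001d048559 was higher in bzip60-2 in each pair, by 1.199 to 2.39 (mean 1.76, SD 0.35 over 8 pairs). At V4 and 31 °C it measured 1.19, 1.04 and 0.75 FPKM in the 3 W22 libraries and 6.29, 7.11 and 5.49 in those of bzip60-2. At V5 and 37 °C it measured 12.14, 9.11 and 13.95 FPKM in W22 and 35.20, 36.11 and 33.99 in bzip60-2. The genotypes did not overlap in either of these pairs, but over the whole design their libraries did. Its neighbour by number, Zm00001d048558, was also higher in bzip60-2 at V4, by 1.09 to 1.79. At V5 its difference went from 2.51 at 31 °C through 0.95 and 0.40 to -0.07 at 37 °C.

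Zm00001d048683 was low in W22, with a lowest, median and highest value of 0.09, 0.515 and 1.37 FPKM over 24 libraries, and 1.68, 3.77 and 11.54 FPKM in bzip60-2. The highest W22 library lay below the lowest of the mutant. The smallest of its 8 differences was 1.08, at V5 and 33 °C, where the W22 libraries measured 0.40, 1.03 and 1.11 FPKM and those of bzip60-2 3.05, 2.85 and 2.61. Without W22 replicate 1 in that group, it no longer reached 1 in all 8 pairs.

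Zm00001d048717 had the most even difference of the 15 members. It measured 35.99, 45.5 and 57.27 FPKM (lowest, median and highest of 24) in W22 and 101.52, 113 and 133.15 FPKM in bzip60-2. The 8 differences lay between 0.96 and 1.59 (mean 1.29, SD 0.19), and the groups did not overlap. Both genotypes were lower at 37 than at 31 °C at V4, with 55.2 ± 1.04 and 36.5 ± 0.676 FPKM in W22 (mean ± SD, n = 3) and 130.4 ± 2.49 and 112 ± 0.979 in bzip60-2.

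Zm00001d048840 was listed at 0 in all 24 libraries of bzip60-2, while in W22 it measured 1.04, 2.54 and 4.39 FPKM (lowest, median and highest of 24). No fold can be given against a group at 0. The value was low in W22 as well, with a mean of 2.52 FPKM. This member met the FPKM condition through its W22 libraries alone, so its lack of overlap is partly set by that condition. The member numbered just before it, Zm00001d048839, chosen for mention after its values were seen, was low in bzip60-2 too, at 0, 0.485 and 1.13 FPKM against 0.49, 2.51 and 5.81 in W22, and there the genotypes overlapped.

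At the upper end, Zm00001d049060, Zm00001d049061 and Zm00001d049068 were higher in bzip60-2 in all 8 pairs, by means of 2.07, 2.06 and 1.34. Zm00001d049061 measured 0.43, 0 and 1.26 FPKM in W22 and 5.28, 6.08 and 6.70 in bzip60-2 at V4 and 35 °C. At V5 and 37 °C the values were 0.38, 1.62 and 1.63 FPKM and 15.95, 19.46 and 23.13. Its smallest difference was 1.11 at V4 and 33 °C, where W22 was listed at 0 in all 3 libraries and bzip60-2 measured 2.13, 1.24 and 0.44 FPKM. Its call in 8 pairs was lost without bzip60-2 replicate 1 at V4 and 33 °C, without bzip60-2 replicate 1 at V5 and 33 °C, or without W22 replicate 3 at V5 and 33 °C.

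Zm00001d049060 had a large difference at every temperature of V5, but at V4 mainly at 31 °C. Its difference was 2.99 at V4 and 31 °C and 0.77, 0.60 and 0.95 at the higher temperatures of V4, and 2.74, 1.81, 2.70 and 4.00 at V5. Zm00001d049068, the last member, was listed at 0 in 18 of 24 W22 libraries, with a highest value of 0.590 FPKM there. In bzip60-2 it measured 0.47, 1.52 and 3.85 FPKM (lowest, median and highest of 24), and 0 libraries were at 0. It met the FPKM condition through its bzip60-2 libraries alone, so the direction of its difference is partly set by that condition.

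Zm00001d048625 and Zm00001d048720 had the largest negative differences among members that averaged 5 FPKM or more in the higher genotype and had the same sign in 8 pairs. Zm00001d048625 measured 5.72, 6.94 and 6.78 FPKM in W22 and 0.41, 0.40 and 0.47 in bzip60-2 at V4 and 33 °C. At V5 and 33 °C it measured 35.41, 35.30 and 36.48 FPKM and 7.85, 6.72 and 5.51. The difference lay between -2.43 and -0.52, smallest at V4 and 37 °C, where W22 itself was at 0.530 ± 0.115 FPKM (mean ± SD, n = 3). Zm00001d048720 differed by -1.33 on average, most at V4 and 35 °C (-2.67) and least at V5 and 35 °C (-0.43), and in bzip60-2 at V5 and 33 °C it was listed at 0 in all 3 libraries.

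**Figure D3:**
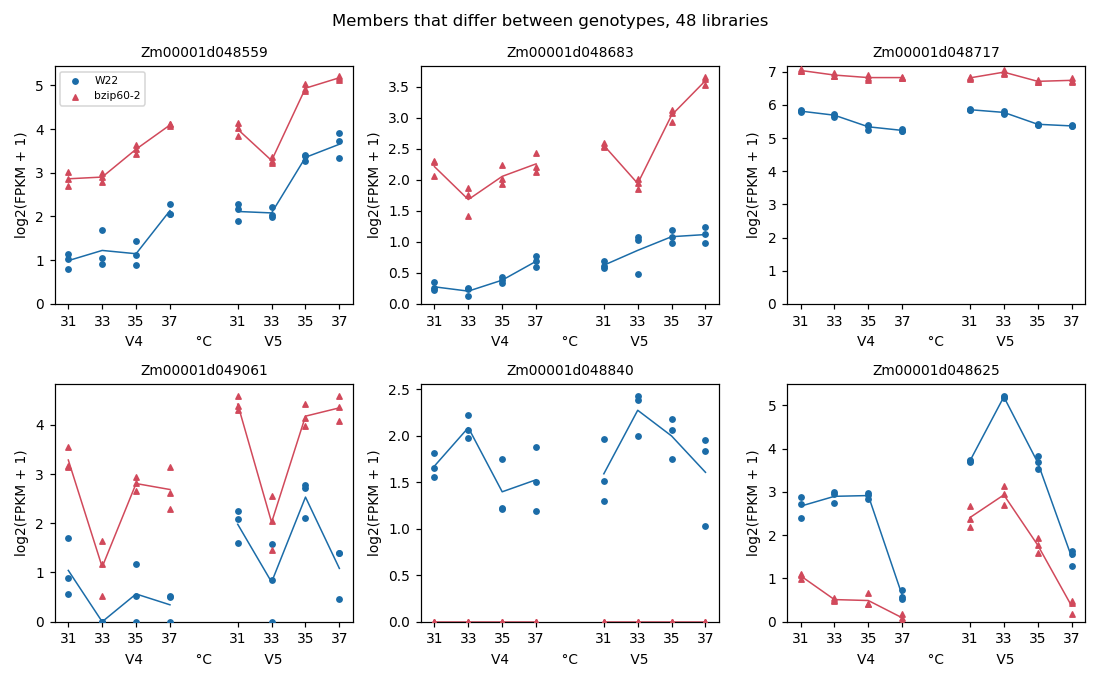
Expression in log2(FPKM + 1) of 6 members in all 48 libraries, against maximum daily temperature at V4 (left of each panel) and V5 (right). Points are libraries, 3 per group, blue circles for W22 and red triangles for bzip60-2, and lines join group means: in every panel the genotypes stay in the same order in all 8 pairs, and Zm00001d048840 lies at 0 in all bzip60-2 libraries.

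A further pair of members of the second stretch were higher in bzip60-2 with a pattern over temperature. Zm00001d048651 differed by 1.32, 1.10, 1.51 and 2.25 at the 4 rising temperatures of V4 and by 0.88, 0.51, 1.56 and 2.28 at V5. Zm00001d048690 differed by 1.09 to 2.40 at V4, by 1.87 and 2.45 at 31 and 37 °C of V5, and by -0.37 and -0.51 in between. Zm00001d048819 was lower in bzip60-2 in 7 pairs, by as much as -2.14, but higher by 1.22 at V5 and 31 °C.

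At 37 against 31 °C a large share of the members changed, as did a large share of all genes tested. In W22, 58 members rose and 43 fell at 37 against 31 °C at V4 (limma, adjusted over all 22794 genes), where 26.6% and 19.7% of all genes tested rose and fell. At V5, 58 rose and 46 fell (21.9% and 22.3%). In bzip60-2, 64 rose and 54 fell at V4 (33.5% and 21.7%), and 37 rose and 83 fell at V5 (20.8% and 32.8%). As shares of 199 members these are 29.1% and 21.6%, 29.1% and 23.1%, 32.2% and 27.1%, and 18.6% and 41.7%. The bzip60-2 comparison at V4 crosses the library sets. A term for the sets hangs on a single W22 library, so it cannot settle their part in this comparison. The next counts stand without shares of all genes tested, which were not computed for these fits. Nothing is read from them about the members. With a term for the sets 62 members passed there (30 higher and 32 lower), and after division by size factors 113 did (47 and 66). The median change of the members was 0.05 in W22 at V4, 0.04 in W22 at V5, 0.04 in bzip60-2 at V4 and -0.11 in bzip60-2 at V5, against 0.05, 0.01, 0.08 and -0.08 for all genes tested.

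Members are named for temperature and stage where the highest group compared averaged 5 FPKM or more. Among these, Zm00001d048710 and Zm00001d048558 rose most in W22 leaves at both stages. At V5 the 31 °C libraries of Zm00001d048710 held 25.22, 27.74 and 24.23 FPKM and the 37 °C libraries 140.47, 143.36 and 159.74, a log2 difference of 2.48 (± 0.0599 SE, adjusted p 2.23e-29), and at V4 the change was 2.06 (± 0.0599 SE, adjusted p 1.28e-26). At V4 Zm00001d048558 averaged 2.02 ± 0.512 FPKM at 31 °C (mean ± SD, n = 3) and 10.6 ± 1.55 at 37 °C, and at V5 4.25 ± 1.12 and 26.6 ± 2.18, with log2 changes of 1.95 (± 0.119 SE, adjusted p 1.24e-16) and 2.41 (± 0.119 SE, adjusted p 1.70e-19). At V5 it stood at 23.6 ± 1.58 FPKM at 33 °C and 30.3 ± 0.784 at 35 °C.

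Zm00001d048625 fell most in W22 at both stages, through a peak on the way at V5. It stood at 12.2 ± 0.182, 35.7 ± 0.652, 11.9 ± 1.29 and 1.84 ± 0.356 FPKM at 31, 33, 35 and 37 °C of V5, and the change at 37 against 31 °C was -2.22 (± 0.124 SE, adjusted p 6.85e-18). At V4 it stood at 5.43 ± 1.07, 6.48 ± 0.663, 6.56 ± 0.406 and 0.530 ± 0.115 FPKM, a change of -2.06 (± 0.124 SE, adjusted p 7.19e-17). The other named falls in W22 were Zm00001d048711 at V4, -1.15 (± 0.137 SE, adjusted p 5.88e-09), and Zm00001d049020 at V5, -2.05 (± 0.131 SE, adjusted p 4.20e-16).

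In bzip60-2 leaves Zm00001d048592 rose most at both stages. At V4 its 31 °C libraries held 34.35, 31.33 and 24.71 FPKM and its 37 °C libraries 150.59, 158.00 and 165.11, a log2 difference of 2.36 (± 0.0599 SE, adjusted p 1.13e-28), and 29.44, 29.54 and 30.58 and 150.95, 165.86 and 156.38 at V5, 2.36 (± 0.0599 SE, adjusted p 4.24e-29). Zm00001d048622 rose at V4 from 1.14 ± 0.497 to 7.72 ± 1.82 FPKM, 2.03 (± 0.318 SE, adjusted p 1.07e-06), but with the set term its change was 0.89 (adjusted p 0.216). Zm00001d048651 rose at V5 from 2.41 ± 0.153 to 13.3 ± 0.761 FPKM, 2.07 (± 0.0964 SE, adjusted p 1.26e-20).

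Zm00001d048774 fell most in bzip60-2, and at V5 step by step. From 31 to 37 °C its group means were 47.5 ± 3.78, 7.18 ± 0.495, 1.46 ± 0.278 and 0.163 ± 0.0709 FPKM, a change of -5.38 (± 0.111 SE, adjusted p 4.38e-32) at 37 against 31 °C. At V4 it fell from 30.7 ± 1.76 to 3.57 ± 0.415 FPKM, -2.80 (± 0.111 SE, adjusted p 1.31e-22). With a pseudocount of 0.1 or 5 in place of 1, the V5 change was -7.53 or -3.34, so its size moves with the pseudocount. In W22 the same member was low throughout, at 0, 1.05 and 3.44 FPKM (lowest, median and highest of 24). At V5 the W22 libraries were also lower at 37 than at 31 °C, from values that were already low.

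The second fall at V5 in bzip60-2 was that of Zm00001d048819, from 15.6 ± 0.950 to 0.227 ± 0.0551 FPKM, -3.76 (± 0.107 SE, adjusted p 2.17e-27). At V4 it was that of Zm00001d049060, with 10.18, 10.03 and 11.84 FPKM in the 31 °C libraries and 0.46, 2.07 and 1.36 in the 37 °C libraries, -2.41 (± 0.299 SE, adjusted p 1.01e-08). It was also low at both temperatures in between, with 0.743 ± 0.491 FPKM at 33 °C and 1.15 ± 1.23 at 35 °C.

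From V4 to V5, averaged over the 4 temperatures, most members rose in both genotypes in the values as deposited. In W22, 133 rose and 42 fell, against 65.7% and 15.8% of all genes tested, and in bzip60-2, 130 rose and 40 fell (67.0% and 15.2%). The size factors were also higher at V5. After division by them 76 rose and 75 fell in W22, and 77 rose and 77 fell in bzip60-2. Shares of all genes tested were not computed after this division or with the set term. Nothing is read about the members from those counts. The W22 comparison also crosses the library sets, and with the set term 103 members passed (82 higher and 21 lower).

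Zm00001d048558 and Zm00001d048559 rose most in W22, by 1.84 (± 0.0595 SE, adjusted p 2.94e-26) and 1.43 (± 0.0714 SE, adjusted p 3.36e-20). Zm00001d049060 and Zm00001d049059 rose most in bzip60-2, by 2.50 (± 0.149 SE, adjusted p 7.62e-18) and 1.52 (± 0.0379 SE, adjusted p 5.74e-30). Zm00001d049059 measured 16.54, 19.02 and 16.15 FPKM at V4 and 41.21, 39.83 and 41.73 at V5 in bzip60-2 at 33 °C, and 13.67, 14.44 and 12.61 and 27.22, 26.15 and 23.48 in W22. Zm00001d049020 and Zm00001d048720 fell most in both genotypes. Zm00001d049020 fell by 1.87 on the log2 scale in W22 (adjusted p 3.70e-25) and by 2.75 in bzip60-2 (adjusted p 1.20e-30), and Zm00001d048720 fell by 2.05 (adjusted p 5.38e-17) and 1.64 (adjusted p 3.72e-14). At 31 °C Zm00001d049020 stood at 30.2 ± 1.84 FPKM at V4 and 12.2 ± 1.24 at V5 in W22, and at 21.2 ± 1.64 and 3.15 ± 0.291 in bzip60-2. These named changes kept their direction and call after division by size factors. With the set term, which hangs on a single library, they kept their direction too.

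The response to heat is the change at 37 against 31 °C, and its difference is that in bzip60-2 minus that in W22. It is built from the genotype differences at 31 and 37 °C by which the range was chosen, so it is a description with no test for the members. In the fit over all genes, 66 members lay past the threshold of 0.05 at V4 and 96 at V5 (limma interaction), and nothing is read from these counts. At V4 the change was higher in bzip60-2 for 26 members (15.3% of all genes tested) and lower for 40 (12.5%). The V4 comparison crosses the library sets, also for members named below, as bzip60-2 at 31 and 37 °C lie in different sets. At V5 the change was higher for 26 (12.5%) and lower for 70 (21.7%). After division by size factors these were 37 and 59, for which shares of all genes tested were not computed. The median over the members was -0.02 at V4 and -0.23 at V5, against 0.03 and -0.10 for all genes tested.

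Zm00001d048774 had the largest such difference at both stages among the members named. At V4 it came to -2.79 (± 0.156 SE), and at V5 to -4.41 (± 0.156 SE). The libraries show where it lay: at V5 and 31 °C bzip60-2 measured 49.54, 43.16 and 49.86 FPKM and W22 1.19, 1.41 and 1.43, and at 37 °C both were near 0, with 0.24, 0.10 and 0.15 and 0.32, 0 and 0.29. The groups were far apart at 31 °C and overlapped at 37 °C, and W22 fell as well, from low values.

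Zm00001d048558 behaved differently at V5, where the genotypes also met at 37 °C but from rising W22 values. The 37 °C libraries measured 24.50, 26.38 and 28.84 FPKM in W22 and 25.54, 27.11 and 23.21 in bzip60-2, which overlap, against 3.98, 5.48 and 3.29 and 28.75, 26.72 and 30.32 at 31 °C. The difference in response was -2.58 (± 0.168 SE), and bzip60-2 itself did not pass at 37 against 31 °C (-0.17, adjusted p 0.23). At V4 the difference in response was -0.43.

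Zm00001d049060 had a V4 difference in response of -2.04 (± 0.422 SE) and a V5 difference of 1.26 (± 0.422 SE). With a pseudocount of 0.1 in place of 1 the V4 value was -1.49, so its size moves with the pseudocount. Zm00001d048592 had a positive difference at V4, 1.31 (± 0.0847 SE), with 84.8 ± 5.54 FPKM at 37 °C in W22 (mean ± SD, n = 3) and 158 ± 7.26 in bzip60-2. W22 was highest at 35 °C instead, at 131 ± 1.24 FPKM. At V5 its difference in response was 0.14.

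For Zm00001d048651 the difference in response at V5 was 1.398 (± 0.136 SE), with 13.52, 12.47 and 13.95 FPKM at 37 °C against 2.03, 1.60 and 2.27 in W22. Zm00001d048720 had a positive difference in response at V5, 1.80 (± 0.370 SE), from values near 0 in bzip60-2 at 31 °C (0, 0.31 and 0 FPKM) to 2.50, 0.90 and 1.80 at 37 °C, while W22 measured 6.41, 3.71 and 5.47 and 2.31, 3.94 and 3.66. Zm00001d048625 at V4 had 1.09 (± 0.175 SE), where both genotypes were below 1 FPKM at 37 °C. With a pseudocount of 0.1 this difference was 0.21, so its size moves with the pseudocount.

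**Figure D4:**
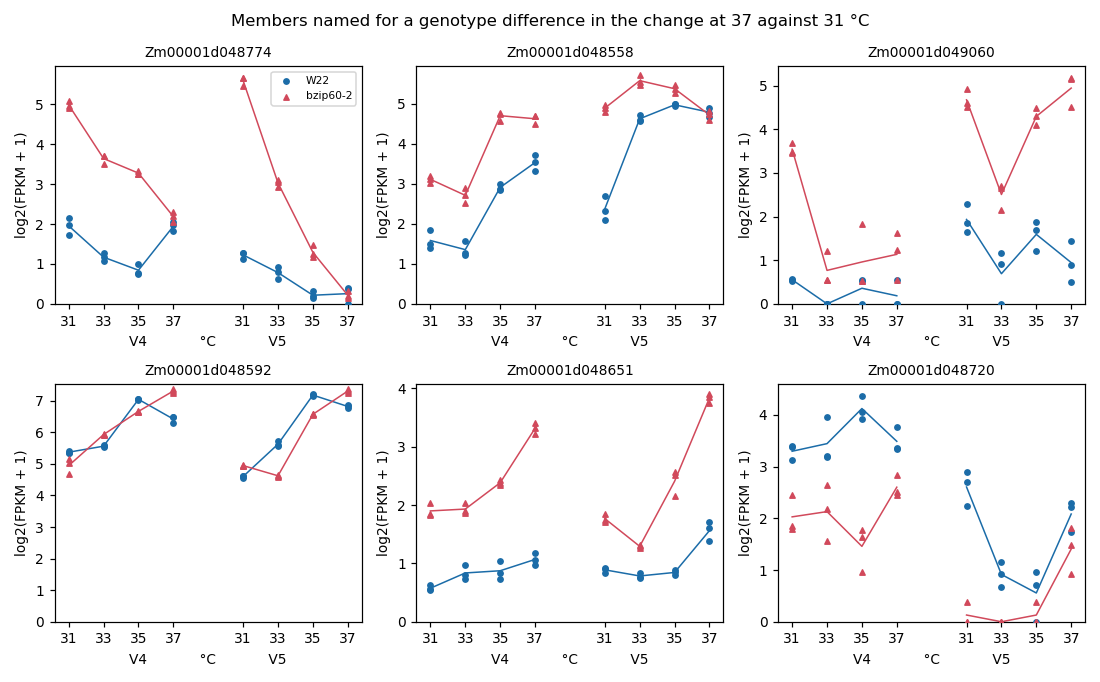
Expression in log2(FPKM + 1) of 6 members named for a difference between genotypes in the change at 37 against 31 °C, in all 48 libraries, against maximum daily temperature at V4 (left of each panel) and V5 (right). Points are libraries, 3 per group, blue circles for W22 and red triangles for bzip60-2, and lines join group means: the genotypes come closest at 37 °C for Zm00001d048774 at both stages and for Zm00001d048558 at V5, and are farthest apart at 37 °C for Zm00001d048651.

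The 6 abundant members with close numbers, Zm00001d048702, Zm00001d048703, Zm00001d048705, Zm00001d048707, Zm00001d048709 and Zm00001d048710, were looked at together after their values were seen. Apart from Zm00001d048707, they were lower in bzip60-2 at V5 from 33 °C upward. Zm00001d048702 measured 188.68, 181.72 and 176.38 FPKM in W22 and 95.22, 92.30 and 89.43 in bzip60-2 at V5 and 33 °C, while at 31 °C it measured 57.53, 58.25 and 58.58 and 59.93, 58.48 and 66.05. Its difference was thus 0.08 at 31 °C and -0.97, -1.13 and -0.39 at the higher temperatures. For Zm00001d048703 the 4 differences at V5 were -0.20, -0.75, -1.12 and -0.80, for Zm00001d048705 -0.15, -0.61, -0.96 and -0.47, and for Zm00001d048710 0.09, -1.12, -1.19 and -0.81.

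Zm00001d048709, the most abundant of the 6, differed most at 31 °C of V5. At V5 it measured 1242.70, 1251.69 and 1326.42 FPKM in W22 and 385.73, 397.21 and 409.57 in bzip60-2 at 31 °C, a difference of -1.68, and at 37 °C the difference was -0.75. At V4 its differences were -0.16, -0.61, -0.71 and -0.82. Zm00001d048707 differed by 0.64 at V5 and 31 °C and by -0.56 at 37 °C. Over 16 group means, which share libraries and scale, the correlation was 0.918 between Zm00001d048703 and Zm00001d048705 and 0.901 between Zm00001d048705 and Zm00001d048710, but -0.03 between Zm00001d048709 and Zm00001d048710.

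**Figure D5:**
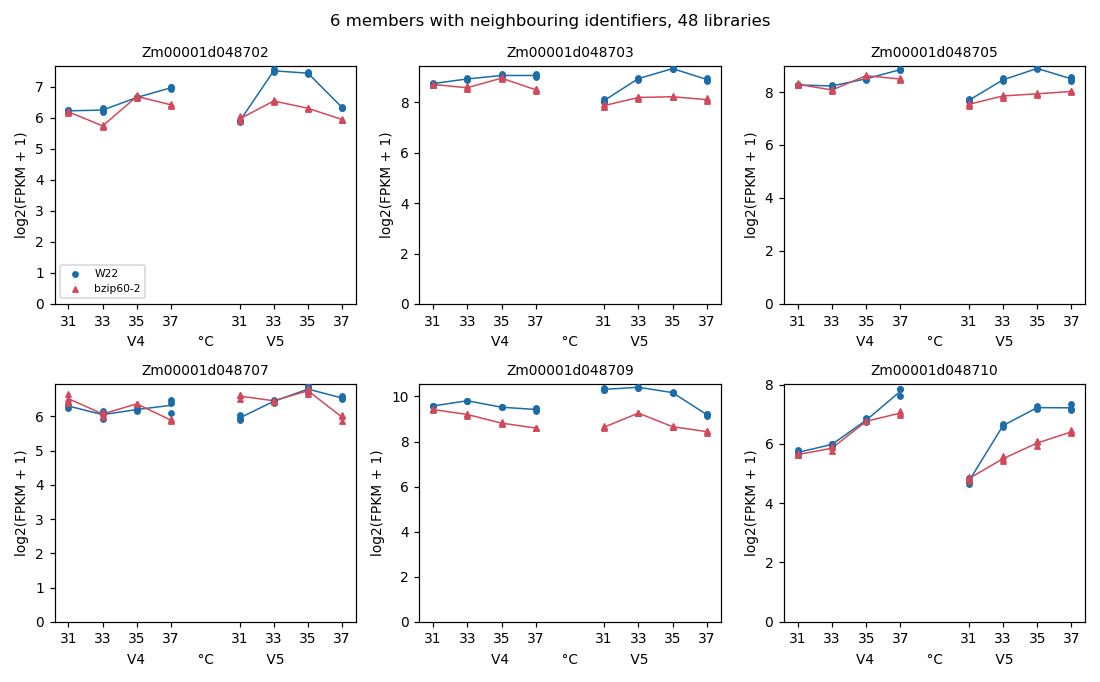
Expression in log2(FPKM + 1) of 6 members with close identifier numbers in all 48 libraries, against maximum daily temperature at V4 (left of each panel) and V5 (right). Points are libraries, 3 per group, blue circles for W22 and red triangles for bzip60-2, and lines join group means: at V5 the W22 lines lie above those of bzip60-2 from 33 to 37 °C in all panels but that of Zm00001d048707, and at 31 °C for Zm00001d048703, Zm00001d048705 and Zm00001d048709.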

How the data were processed

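The deposited table holds FPKM values that the authors computed, in 1 column per library. Oligo(dT) beads were used to select poly(A) RNA, per the labels' protocols. RSEM 1.2.12, Bowtie2 2.2.5, HISAT, HISAT2 2.0.4 and DESeq2 1.4.5 are named, without their steps, per the submitters' processing notes. The genome build is not given in the sources used here, nor is the handling of reads shared by near-identical genes. Sequences of the members were not used here.

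Computed here were log2(FPKM + 1) values of genes that reached 1 FPKM in 3 or more libraries. Fold changes on this scale understate those of low genes. A model with 16 group means was fitted to all 48 libraries in R 4.3.3 by limma 3.58.1, with moderated variances that follow a trend over expression, checked on simulated data, with two-sided p-values adjusted by the Benjamini-Hochberg method over 22794 genes and a threshold of 0.05. Contrasts were 37 against 31 °C in each genotype and stage, V5 against V4 in each genotype, and the difference between genotypes in the first, whose p-values are not reported for single members because it shares the values that chose the range. Tables and figures were made with Python 3.11.15, pandas 2.3.3 and matplotlib 3.10.9.

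The members, contrasts and lists were chosen with earlier results of these data known. Named per contrast are up to 2 members that rose most and 2 that fell most among those past the threshold whose highest group averaged 5 FPKM or more. For the genotypes they had to keep 1 sign in 8 pairs. Also named are the member with the largest mean difference in each 100 identifiers and the genes at both ends of the range and of the FPKM condition. Other members were named after their values were seen. Alternatives were other pseudocounts and filters, size factors, array weights, a replicate block, only the groups compared and left-out libraries. A term for the library sets, the 5 pairs within a set and differences measured from the median of all genes were added after the data were seen. 1 row of the range is not reported here.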

Additional observations from a re-analysis of the deposited data

How the results depend on the processing

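Among the alternatives other than left-out libraries, 77 values of the 11 results kept their size class and 10 moved, and of the values of named members 285 kept their call and 3 lost it. No named member's change turned its sign in these runs, but the balance of rises and falls in bzip60-2 at V4 went from 64 and 54 to 47 and 66 after size factors and to 30 and 32 with the library set term. With that term, 62 members passed at 37 against 31 °C in bzip60-2 at V4 (118 without it) and 103 passed at V5 against V4 in W22 (175 without it). The 4 members with a difference of at least 1 in 8 pairs became 7 with a pseudocount of 0.1, 0 with a pseudocount of 5 and 2 when measured from the median of all genes. The median genotype difference, 0.18, was 0.242 with a pseudocount of 0.1, 0.116 with 5, 0.0579 over the 309 rows without a filter, 0.243 where 5 FPKM was required in 3 libraries (152 members) and -0.000356 after size factors. The lost calls were those of Zm00001d048622 in bzip60-2 at V4 with the set term (0.89), and of Zm00001d048625 (0.21) and Zm00001d049060 (-1.49) for the interaction at V4 with a pseudocount of 0.1. For the interaction a call is no test of the members and served only to choose which to name. Left-out libraries gave 90 to 97 members at 37 against 31 °C in W22 at V4, 86 to 97 in W22 at V5, 108 to 115 in bzip60-2 at V4 and 113 to 116 in bzip60-2 at V5. With all libraries these counts were 101, 104, 118 and 120, each above its range. Left-out libraries also gave 169 to 174 and 164 to 171 between stages in W22 and bzip60-2, 58 to 68 and 88 to 98 for the interaction at V4 and V5, 3 to 4 in 8 pairs, 3 to 4 without overlap and medians of 0.17 to 0.19. The member that joined those without overlap was Zm00001d049068, without bzip60-2 replicate 3 at V4 and 33 °C. No member named for temperature or stage lost its call through a left-out library. Zm00001d048683 and Zm00001d049061 left the 8-pair count without the libraries named beside them. Replicate numbers did not pair the 37 with the 31 °C libraries of a genotype and stage. Over 12 same-numbered sets the correlation of deviations from group means was -0.03 to 0.02, and 3 libraries of 12 correlated best with their own number. Same-numbered libraries of different genotypes or stages were not compared. With the replicate block, 102, 119, 104 and 120 members passed at 37 against 31 °C (W22 V4, bzip60-2 V4, W22 V5, bzip60-2 V5), 174 and 169 between stages and 64 and 96 for the interaction. Shares of all genes tested were not computed under the alternatives of this section. Nothing is read about the members from these counts. The depth in reads is unknown, which limits what can be said of members near 0.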
